A study of Mus musculus with 6 samples.

Results

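Chromatin remodelers use the energy of ATP to slide, evict or restructure nucleosomes, and the 42 genes described here encode subunits of the BAF and PBAF complexes, the CHD family of ATPases, the NuRD complex and ATRX. The members were taken from a list of gene symbols, and all 42 were found among the 55364 genes of the table, with 24 genes for BAF and PBAF, 8 for CHD proteins, 9 for the other NuRD subunits and *Atrx*. RNA-seq measured them in morulae of a control KD group and a *Yy1* KD group, with 3 libraries each. Zygotes from in vitro fertilization of BDF1 oocytes with BDF1 sperm were injected with an siRNA, a control in one group and one against *Yy1* in the other, and each library was made from a pool of morulae cultured in KSOM, so that a value is an average over embryos and over the inner and outer cells of each embryo. The sex of the pooled embryos is not given, which bears on the X-linked members *Rbbp7* and *Atrx*. The comparison asks which remodeler transcripts differ in morulae when YY1, a zinc finger transcription factor, is depleted.

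BAF complexes are built around the ATPase SMARCA4 (BRG1) or its paralogue SMARCA2 (BRM). In canonical BAF, a core of SMARCB1, SMARCC, SMARCD and SMARCE1 proteins is joined by ARID1 and DPF subunits. In PBAF this core is joined by ARID2, PBRM1, BRD7 and PHF10. A smaller non-canonical form, without SMARCB1 and SMARCE1, holds BRD9. NuRD joins a nucleosome-sliding ATPase, CHD4 or CHD3, to histone deacetylases through MTA, GATAD2, MBD and RBBP subunits, and is known for gene repression and lineage decisions in the early embryo. SMARCA4 is known to be needed from oocyte-derived stores for genome activation and again for blastocyst formation, and CHD1 and CHD4 are known to act before implantation.

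Values are TPM, a level per unit of annotated exon length with a common total in every library. Comparisons between genes, and shares of paralogues in a sum, depend on that length, and other lengths were not tested. Read pairs on genes, recovered from TPM and exon length, ranged from 12519597 to 24417789 in control KD and from 11793509 to 18674188 in *Yy1* KD libraries. The level of *Yy1* in *Yy1* KD morulae was 9.07% of that in control KD morulae. All 12 markers of morula cells, among them *Pou5f1*, *Nanog* and *Cdx2*, were at 1 TPM or more in each library. Their summed level lay between 2601 and 2863 TPM in control KD and between 2263 and 2520 TPM in *Yy1* KD libraries, without overlap. Taken singly, *Tfap2c*, *Sox2* and *Sall4* were lower without overlap, and the other markers, *Pou5f1*, *Nanog* and *Cdx2* included, overlapped. Of 14 markers of cumulus and granulosa cells, 7 were listed at 0 in all libraries (*Has2*, *Ptx3*, *Tnfaip6*, *Fshr*, *Cyp19a1*, *Pgr* and *Lum*), and the list summed to 22.6 to 53.0 TPM in control KD and 15.6 to 22.9 TPM in *Yy1* KD libraries, most of it from *Col4a1*. The 12 maternal oocyte transcripts summed to 102 to 137 and 117 to 143 TPM. The part of these differences in the results below was not tested, and in pools of embryos fewer cells of a type and less RNA per cell cannot be told apart.

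In *Yy1* KD morulae 3 remodeler transcripts were downregulated, all of them subunits of BAF. BAF and PBAF supplied 23 of the 41 members tested. The downregulated members were *Bcl7a*, which fell to 44.5% of the control level, *Smarcb1* and *Dpf2*. Only *Bcl7a* was still called with the replicate block, with quantile normalization or without a variance trend, and fits that left out 1 library called between 0 and 2 members, *Smarcb1* and *Dpf2* in none of them. None of the 41 members tested was upregulated. *Dpf1*, a neuronal paralogue of *Dpf2*, was not tested, since it reached 1 TPM in fewer than 3 libraries. Differences were tested across all 17353 genes that passed this minimum, on log2(TPM + 1) with limma, and a gene was called at a Benjamini-Hochberg adjusted p under 0.05. On this scale the fold change of a gene with low TPM is smaller than the ratio of its TPM values. The 3 downregulated members are 7.32% of those tested, and 4.2% of all genes tested were downregulated. For upregulated genes the shares were 0 of 41 members and 1.92% of all genes. At an unadjusted limma p under 0.05, 11 of the 41 members were lower and 3 were higher. Over all 17353 genes tested, 2500 were lower and 1623 higher at this level.

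Groups that did not overlap were counted over all members tested, the 3 called ones included. The 3 *Yy1* KD values were all below the 3 control KD values in 16 of the 41 members (39.0%), where 17.2% of all genes tested showed this, and all above them in 5 members (12.2%), where 12.9% of all genes did. The members are expressed at a higher level than most genes, with a median control KD level of 34.9 TPM against 8.75 TPM over all genes tested. Of the 36 members with a mean of at least 5 TPM, 15 (41.7%) were lower in this way and 2 were higher, beside 21.1% and 14.7% of the genes above that level. The 16 lower members were 12 of the 23 BAF and PBAF genes tested (the 3 called among them), 3 of the 8 CHD genes and 1 of the 9 other NuRD genes. The median log2 fold change was -0.26 for BAF and PBAF, -0.10 for CHD, -0.07 for the other NuRD subunits and -0.02 over all genes tested. In a comparison of single genes, groups that do not overlap give p = 0.1 in a two-sided exact permutation test, the smallest p that 3 libraries against 3 allow.

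**Figure D1:**
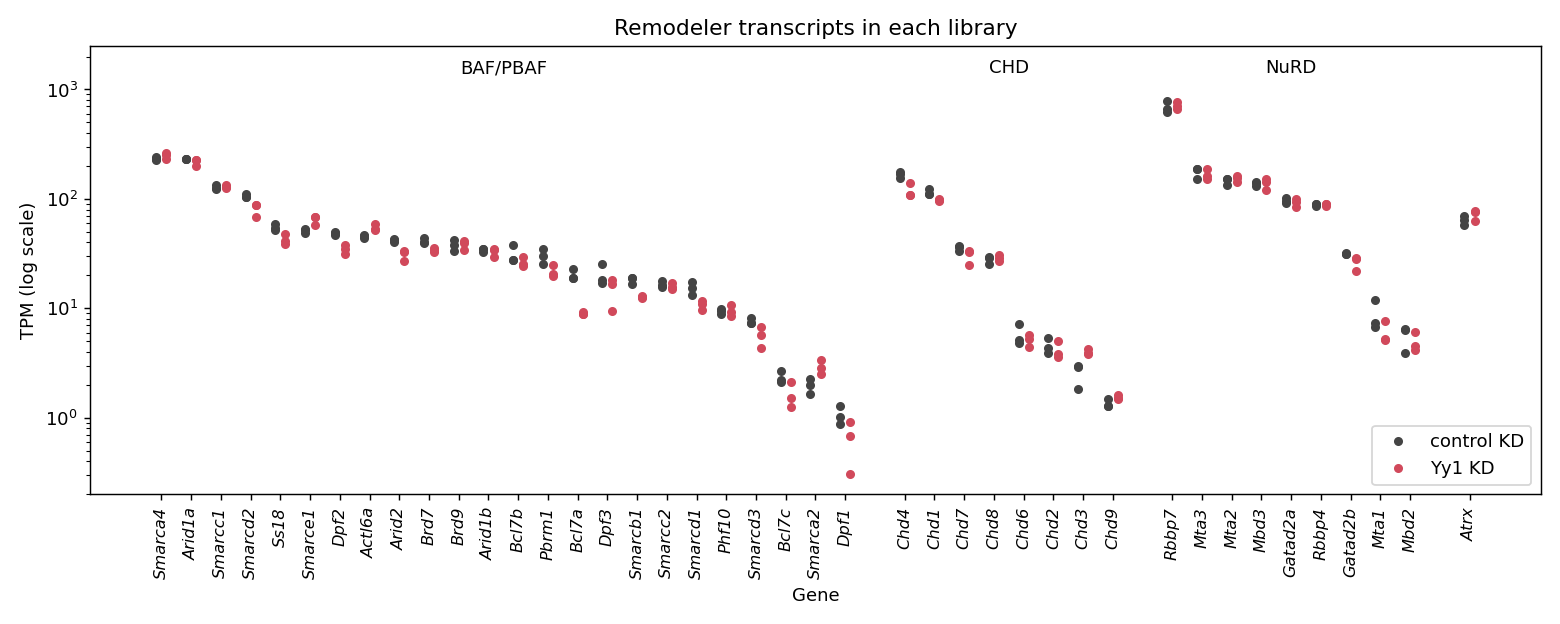
TPM on a log axis for each of the 42 genes, ordered by control KD level within BAF/PBAF, CHD and NuRD, with *Atrx* at the right. Each point is a library, and the levels run from about 1 TPM for *Dpf1* to 691 TPM for *Rbbp7* in control KD morulae.

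Promoter sequences, given by RefSeq on GRCm38.p6 from 250 bases before to 50 bases after each start, were available for 32 of the 42 members. *Smarce1*, *Arid2*, *Bcl7a*, *Ss18*, *Chd1*, *Chd2*, *Chd3*, *Chd7*, *Mta3* and *Mbd2* had no entry. The YY1 consensus GCCATNTT, read as AANATGGC on the other strand, was present in 6 members (18.8%), where 6.96% of the 27025 genes with an entry held it. The 95% Wilson interval of the share in members was 8.89% to 35.3%. The 27025 genes were not limited to those expressed in morulae, and a background of expressed genes was not tested. The sites in members are printed because they are where the letters of the YY1 motif stand near a remodeler start. Each is given as 30 bases on the strand of the gene, with the motif in capitals.
*Chd4*, chr6:125096162-125096191, plus strand, motif 10 bases downstream of the start: ccggagccggaGCCATTTTccccccttcgg
*Smarcd1*, chr15:99702307-99702336, plus strand, 32 bases downstream: ggcggctccgggAAGATGGCggcccgggcg
*Dpf3*, chr12:83487693-83487722, minus strand, 25 bases downstream: tacattgtagcAAAATGGCgactgtcattc
*Atrx*, chrX:105929323-105929352, minus strand, 33 bases downstream: gcctcggcccaacAAAATGGCgtcggcata
*Arid1a*, chr4:133756983-133757012, minus strand, 232 bases upstream: gcacatcctctGCCATTTTcagccggttgc
*Arid1b*, chr17:4994925-4994954, plus strand, 138 bases upstream: gtcacgacctgAACATGGCccatagcgcga
None of the genes with a site was called. Their log2 fold changes were -0.50 for *Chd4* (limma adjusted p = 0.0559), -0.47 for *Smarcd1* (0.105) and -0.46 for *Dpf3* (0.354). For *Atrx* the value was 0.18 (limma adjusted p = 0.426), for *Arid1a* -0.09 (0.523) and for *Arid1b* -0.07 (0.730). A relation between the position of the motif and the fold change was not tested. The downregulated members *Smarcb1* and *Dpf2* had an entry without these letters, which says only that they are not in this window. A match is a description of the sequence and does not show that YY1 was bound there.

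The ATPases of BAF were expressed very unequally. *Smarca4* was at 242, 231 and 226 TPM in control KD and 230.1, 264 and 251 TPM in *Yy1* KD libraries, and the groups overlapped (log2 fold change 0.09, standard error 0.08, limma adjusted p = 0.531). *Smarca2* was at 2.25, 1.65 and 2.01 TPM in control KD and 3.35, 2.84 and 2.50 TPM in *Yy1* KD libraries, with groups that did not overlap, and missed the threshold (log2 fold change 0.39, standard error 0.21, limma adjusted p = 0.309). *Smarca4* thus made up 99.2% ± 0.113 of the summed ATPase transcript in control KD and 98.8% ± 0.240 in *Yy1* KD morulae (SD, n = 3 per group).

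*Smarcb1*, also known as SNF5 or INI1, a core subunit that contacts the nucleosome, was downregulated. It was at 16.8, 19.1 and 19.0 TPM in control KD and at 12.9, 12.6 and 12.3 TPM in *Yy1* KD libraries, with no overlap. Its mean was 18.3 ± 1.29 TPM in control KD and 12.6 ± 0.295 in *Yy1* KD (SD, n = 3 per group; log2 fold change -0.50, standard error 0.11, limma adjusted p = 0.0462). The gene lies at chr10:75896769-75921617 on the minus strand (GRCm38) and its exons overlap no other annotated gene. Its adjusted p is close to the threshold, and *Smarcb1* was not called in any of the 6 fits that left out 1 library, where the adjusted p was between 0.0898 and 0.144.

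The SMARCD subunits, which bridge the core to transcription factors, were below the control without overlap in 3 of 3 genes, beside 21.1% of all genes with a mean of at least 5 TPM, and were not called. *Smarcd2*, the most abundant, was at 111, 104 and 104 TPM in control KD and at 68.1, 87.2 and 87.3 TPM in *Yy1* KD libraries (log2 fold change -0.40, limma adjusted p = 0.0920). *Smarcd1* was at 13.4, 15.3 and 17.4 against 10.9, 9.72 and 11.7 TPM (log2 fold change -0.47, limma adjusted p = 0.105), and 511 of its exonic bases overlap *Gm17349* and *Gm34939* on the other strand. *Smarcd3*, known for its part in heart development, was at 8.23, 7.29 and 7.32 against 5.67, 4.34 and 6.73 TPM, and shares 2564 bases of exon with *Chpf2* and *Mir671* on the other strand, from which its reads cannot be told apart. Summed over the family, the level was 129 ± 3.12 TPM in control KD morulae, against 97.2 ± 11.1 TPM in *Yy1* KD (SD, n = 3 per group), with no overlap, and the share of *Smarcd2* in this sum was 82.2% and 83.0%.

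*Smarcc1*, the scaffold typical of BAF in pluripotent cells, was at 135, 127 and 123 TPM in control KD and 135, 129 and 125 TPM in *Yy1* KD libraries. Its paralogue *Smarcc2* was at 16.6 ± 1.01 and 15.9 ± 0.904 TPM (SD, n = 3 per group), so that *Smarcc1* made up 88.5% and 89.0% of the pair. *Smarce1*, a DNA-binding HMG-box subunit, lay above the control in each *Yy1* KD library, with 53.6, 48.7 and 52.2 TPM in control KD and 68.2, 67.9 and 57.8 TPM in *Yy1* KD libraries, but missed the threshold (log2 fold change 0.32, standard error 0.09, limma adjusted p = 0.103). *Actl6a*, the actin-related subunit BAF53A, was at 45.7, 44.2 and 46.8 against 52.9, 58.8 and 52.1 TPM and was not called either (log2 fold change 0.25, limma adjusted p = 0.125). It shares 452 exonic bases with *Mrpl47* on the other strand.

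*Bcl7a* showed the largest change of the 41 members tested. BCL7 proteins are small accessory subunits of BAF. The 3 control KD libraries had 23.1, 18.8 and 19.0 TPM and the 3 *Yy1* KD libraries 8.95, 9.24 and 8.87 TPM. The *Yy1* KD values lay within 0.4 TPM of each other and far below the lowest control. The mean was 20.3 ± 2.41 TPM in control KD and 9.02 ± 0.191 in *Yy1* KD (SD, n = 3 per group; log2 fold change -1.08, standard error 0.12, limma adjusted p = 0.0114). *Bcl7a* lies at chr5:123343834-123374992 on the plus strand, and 13 exonic bases overlap *Gm15860*. Between 417 and 1839 read pairs stood behind its values. It was called in 5 of the 6 fits that left out 1 library. Without control KD replicate 3 the log2 fold change was -1.12 and the adjusted p 0.0502.

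The paralogues of *Bcl7a* differed less. *Bcl7b* was at 38.2, 27.6 and 27.7 TPM in control KD and 29.6, 25.6 and 24.3 TPM in *Yy1* KD libraries, which overlapped (log2 fold change -0.22, limma adjusted p = 0.450). *Bcl7c* was low, at 2.33 ± 0.303 and 1.62 ± 0.436 TPM (SD, n = 3 per group; log2 fold change -0.35, limma adjusted p = 0.396). The share of *Bcl7a* in the summed BCL7 transcript was 36.1%, 38.7% and 38.8% in control KD and 22.5%, 25.0% and 25.6% in *Yy1* KD libraries. Correspondingly *Bcl7b*, the leading paralogue, went from 57.8% ± 1.70 to 71.2% ± 2.73 (SD, n = 3 per group; two-sided exact permutation test, p = 0.1, Benjamini-Hochberg adjusted to 0.367 across 11 families). With 3 libraries per group this test cannot pass a threshold of 0.05. The TPM values rest on exon lengths of 9490 bases for *Bcl7a* and 2404 for *Bcl7b*. Between 417 and 1839 read pairs stood behind *Bcl7a* and between 290 and 685 behind *Bcl7b*. Which of them leads depends on these lengths, and other lengths were not tested.

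**Figure D2:**
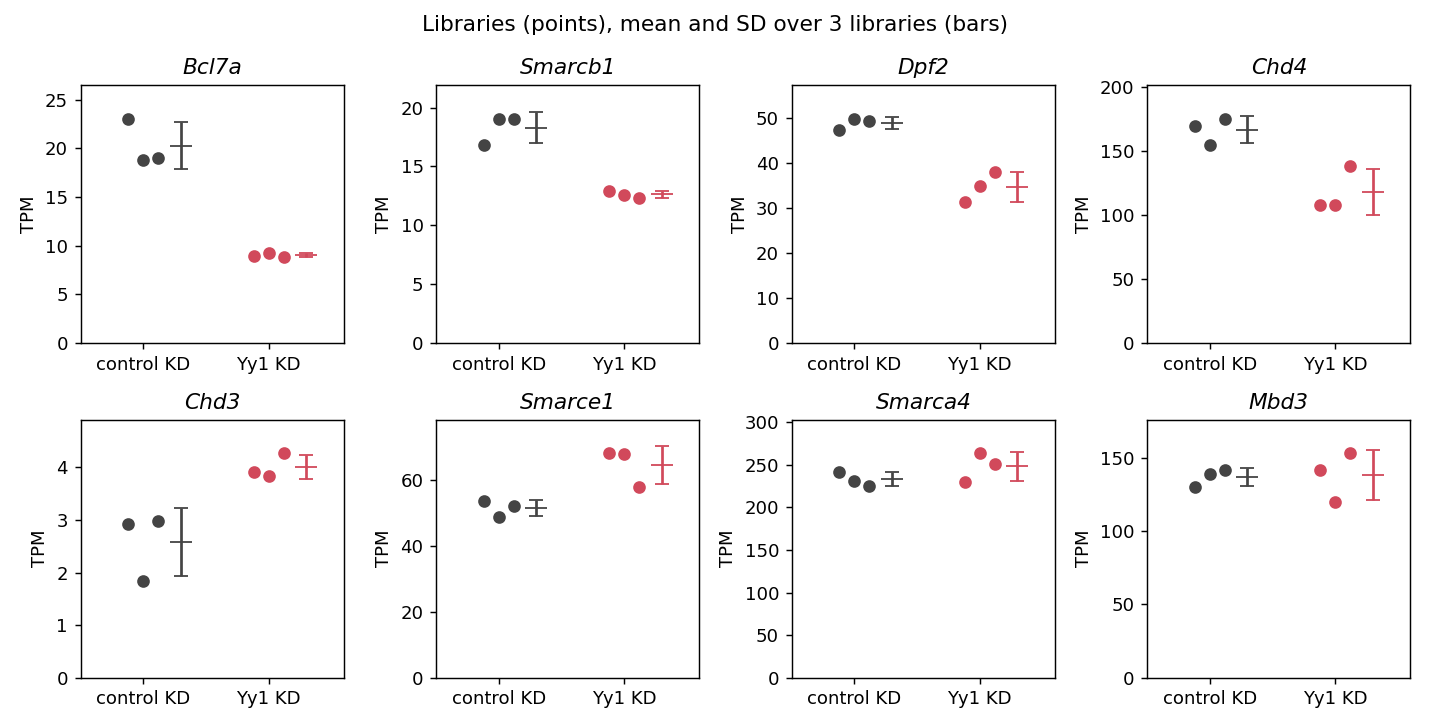
TPM in each library (points) with the mean and SD over 3 libraries (bars beside the points) for 8 genes, chosen after their values were seen. *Bcl7a*, *Smarcb1*, *Dpf2* and *Chd4* lie lower in the 3 *Yy1* KD libraries, *Chd3* and *Smarce1* lie higher, and *Smarca4* and *Mbd3* overlap.

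Among the subunits of canonical BAF, *Dpf2* was downregulated. DPF2 carries a tandem PHD finger that reads histone acylation. It was at 47.3, 49.8 and 49.3 TPM in control KD and at 31.2, 34.9 and 37.9 TPM in *Yy1* KD libraries. The highest *Yy1* KD value thus lay well below the lowest control. The mean was 48.8 ± 1.35 TPM in control KD and 34.7 ± 3.36 in *Yy1* KD (SD, n = 3 per group; log2 fold change -0.48, standard error 0.10, limma adjusted p = 0.0380). The gene lies at chr19:5896516-5913010 on the minus strand, and 79 exonic bases overlap *Gm42067* on the other strand. None of the fits that left out 1 library called it, with an adjusted p between 0.0567 and 0.121.

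The paralogues *Dpf3* and *Dpf1* had wider spreads. *Dpf3* was at 25.7, 18.0 and 17.0 TPM in control KD and at 9.38, 16.6 and 18.1 TPM in *Yy1* KD libraries, with overlap (log2 fold change -0.46, standard error 0.27, limma adjusted p = 0.354), and *Yy1* KD replicate 1 had the lowest value. *Dpf1* was at 1.06 ± 0.207 and 0.631 ± 0.307 TPM (SD, n = 3 per group), with between 9 and 72 read pairs behind each value, and its groups overlapped.

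ARID1 subunits define canonical BAF. *Arid1a* was at 229.3, 233 and 229.7 TPM in control KD and at 226, 227 and 200.1 TPM in *Yy1* KD libraries without overlap (log2 fold change -0.09, standard error 0.07, limma adjusted p = 0.523). *Arid1b* was at 34.2 ± 1.09 and 32.7 ± 2.83 TPM (SD, n = 3 per group), with overlap, and *Arid1a* made up 87.1% and 86.9% of the pair. Their sum was 265 ± 2.91 TPM in control KD and 250.1 ± 14.1 in *Yy1* KD (SD, n = 3 per group), also without overlap. *Ss18*, which joins canonical and non-canonical BAF and is known as a fusion partner in synovial sarcoma, was at 52.4, 58.5 and 54.3 against 47.5, 38.5 and 41.0 TPM. Its groups did not overlap and it missed the threshold (log2 fold change -0.37, limma adjusted p = 0.0853).

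Of the 4 subunits particular to PBAF, 3 lay below the control without overlap, as did 17.2% of all genes tested and 21.1% of those with a mean of at least 5 TPM, and none was called. *Arid2*, the DNA-binding subunit, was at 41.8, 42.7 and 40.5 TPM in control KD and at 33.4, 27.0 and 32.7 TPM in *Yy1* KD libraries (log2 fold change -0.42, standard error 0.11, limma adjusted p = 0.0677). *Pbrm1*, the polybromo subunit, was at 30.4, 25.4 and 34.7 against 25.1, 20.8 and 19.8 TPM (log2 fold change -0.44, limma adjusted p = 0.132). The gap between the lowest control and the highest *Yy1* KD library was small for *Pbrm1*. *Brd7*, a bromodomain subunit, was at 41.1 ± 2.21 and 34.1 ± 1.35 TPM (SD, n = 3 per group; log2 fold change -0.26, limma adjusted p = 0.120). *Phf10* was at 9.43 ± 0.572 and 9.56 ± 1.18 TPM (SD, n = 3 per group) with a log2 fold change of 0.01, and 470 of its exonic bases overlap *1600012H06Rik* on the other strand. *Brd9*, the bromodomain subunit of non-canonical BAF, was at 42.4, 33.3 and 38.3 against 34.2, 41.7 and 39.4 TPM, which overlapped (log2 fold change 0.02, limma adjusted p = 0.955).

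PHF10 takes the place in PBAF that DPF proteins hold in canonical BAF. Of the summed transcript of these 4 genes, *Phf10* made up 11.9%, 11.3% and 12.4% in control KD and 18.4%, 14.1% and 16.1% in *Yy1* KD libraries, without overlap. The share of the leading gene *Dpf2* was 61.5% ± 4.41 and 58.5% ± 2.67 (SD, n = 3 per group), with overlap. The sum over the 4 genes was 79.5 ± 3.73 TPM in control KD morulae, against 59.6 ± 8.38 TPM in *Yy1* KD (SD, n = 3 per group), and these sums did not overlap.

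**Figure D3:**
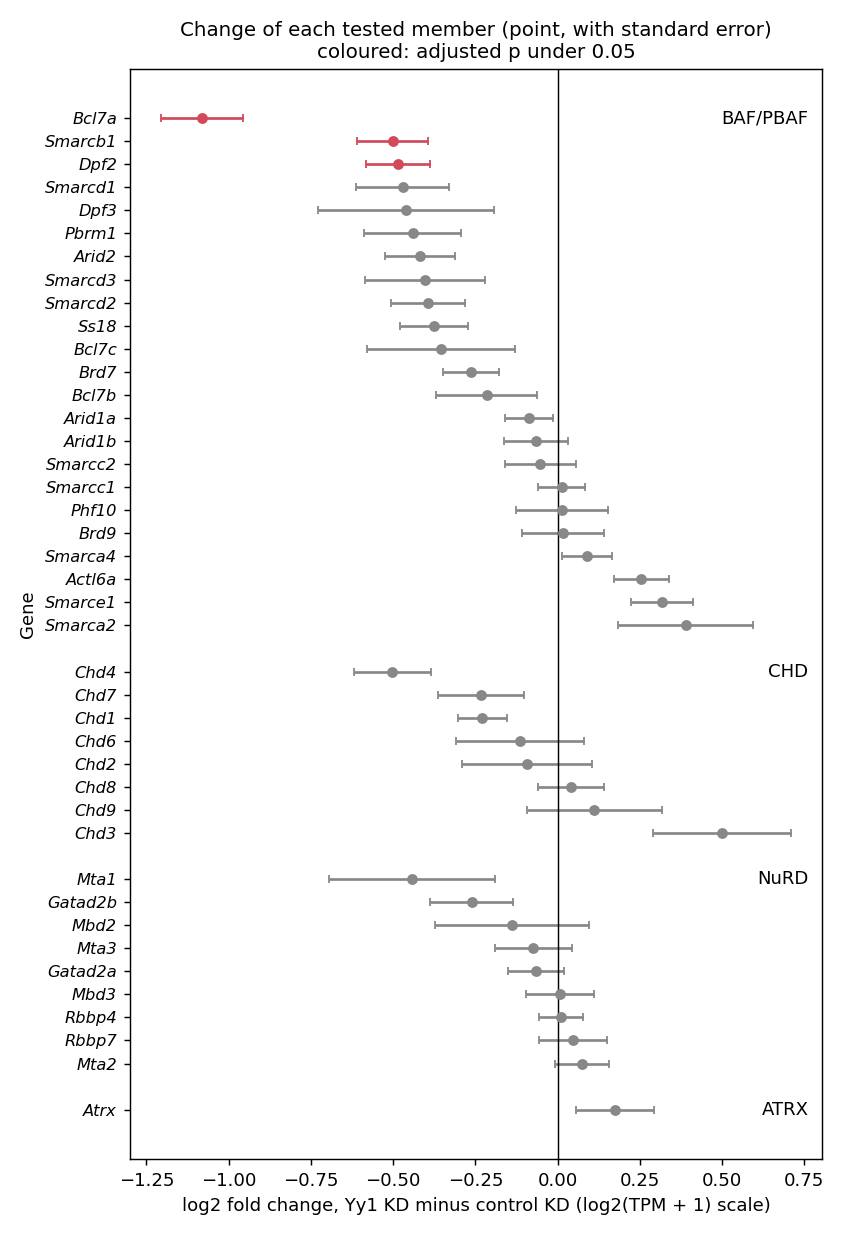
log2 fold change (*Yy1* KD minus control KD, on the log2(TPM + 1) scale) with its standard error for the 41 members tested, sorted within each group. The 3 coloured points, *Bcl7a*, *Smarcb1* and *Dpf2*, have an adjusted p under 0.05 and lie at -1.08, -0.50 and -0.48.

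CHD proteins carry paired chromodomains and a SNF2-type ATPase. None of the 8 genes was called. *Chd4*, the main NuRD ATPase, came closest. It was at 169, 155 and 175 TPM in control KD and at 108, 108 and 139 TPM in *Yy1* KD libraries, and the lowest control lay above the highest *Yy1* KD library. The mean was 167 ± 10.6 TPM in control KD and 118 ± 17.8 in *Yy1* KD (SD, n = 3 per group; log2 fold change -0.50, standard error 0.12, limma adjusted p = 0.0559). *Chd4* lies at chr6:125095981-125130591 on the plus strand, contains *Mir7045*, and holds the motif printed above 10 bases downstream of the RefSeq start. *Chd4* was called in 1 of the 6 fits that left out 1 library, the fit without *Yy1* KD replicate 3 (log2 fold change -0.62, limma adjusted p = 0.0390). That library had the highest of the *Yy1* KD values. In the other fits that left out 1 library, the limma adjusted p lay between 0.0920 and 0.157.

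*Chd3*, the alternative NuRD ATPase, lay on the other side. It was at 2.93, 1.84 and 2.98 TPM in control KD and at 3.92, 3.83 and 4.27 TPM in *Yy1* KD libraries, without overlap, and missed the threshold (log2 fold change 0.50, standard error 0.21, limma adjusted p = 0.209). Its share in the sum of both ATPases was 1.70%, 1.17% and 1.67% in control KD and 3.51%, 3.44% and 2.99% in *Yy1* KD libraries. *Chd4* therefore still made up 96.7% ± 0.281 of the pair in *Yy1* KD, against 98.5% ± 0.296 in control KD morulae (SD, n = 3 per group; exact permutation test p = 0.1, adjusted 0.367 over the 11 families). The sum was 169 ± 11.2 TPM in control KD and 122 ± 18.0 in *Yy1* KD (SD, n = 3 per group), without overlap.

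*Chd1*, which binds methylated lysine 4 of histone H3 at active genes, was the second most abundant CHD transcript. It was at 123, 110.3 and 111 TPM in control KD and at 95.9, 100.4 and 97.5 TPM in *Yy1* KD libraries, without overlap (log2 fold change -0.23, standard error 0.07, limma adjusted p = 0.123). *Chd7*, the gene mutated in CHARGE syndrome, was at 37.3, 33.5 and 36.1 against 25.0, 33.3 and 33.0 TPM, and the groups were separated by less than 1 TPM (log2 fold change -0.23, limma adjusted p = 0.339). *Chd8*, a paralogue known for its link to autism, was at 29.7, 25.5 and 28.7 against 28.6, 30.6 and 27.1 TPM, with overlap (log2 fold change 0.04, limma adjusted p = 0.849).

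The remaining CHD genes were low in morulae of both groups. *Chd6* was at 5.71 ± 1.26 and 5.15 ± 0.636 TPM and *Chd2* at 4.52 ± 0.761 and 4.18 ± 0.757 TPM (SD, n = 3 per group), both with overlap and with log2 fold changes of -0.12 and -0.09. *Chd9* was at 1.29, 1.48 and 1.27 TPM in control KD and at 1.48, 1.61 and 1.51 TPM in *Yy1* KD libraries (log2 fold change 0.11, limma adjusted p = 0.790). Its groups were separated by a smaller margin than their own spread. *Chd2* shares 2758 exonic bases with *1810026B05Rik* and *Gm44686*, and *Chd8* 953 with *Gm26590*, so that their values are uncertain.

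**Figure D4:**
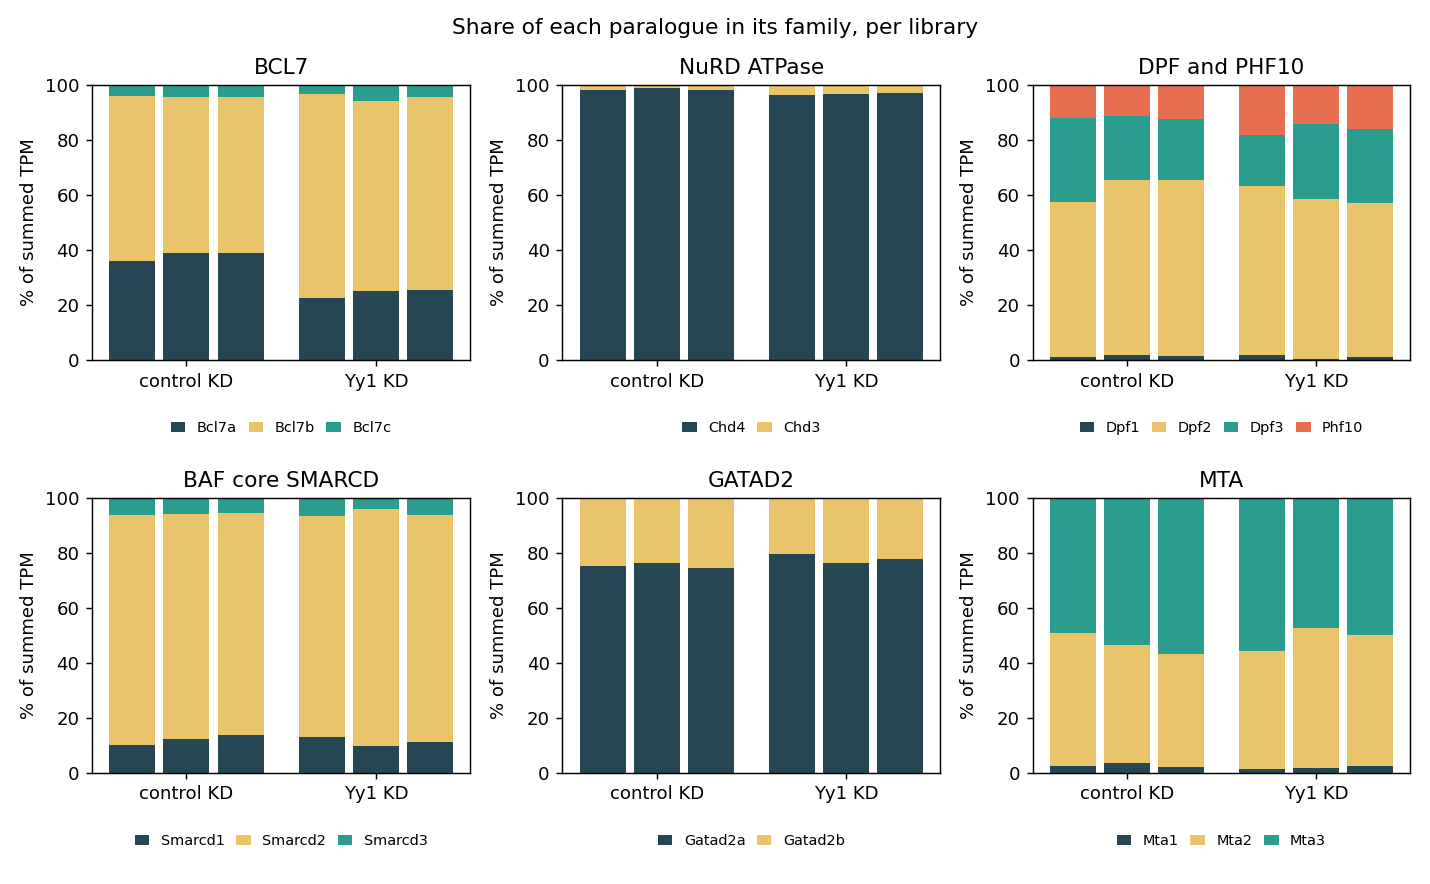
Share of the summed TPM of a family taken by each paralogue, 1 stacked bar per library, with 3 control KD bars at the left and 3 *Yy1* KD bars at the right of each panel. *Bcl7a* takes 37.9% of the BCL7 sum in control KD and 24.4% in *Yy1* KD morulae, and *Chd3* takes 1.51% and 3.31% of the NuRD ATPase sum, while the SMARCD, GATAD2 and MTA shares overlap between groups.

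The other NuRD subunits had a median control KD level of 96.5 TPM, against 34.9 TPM over all members, and ranged from 5.57 to 691 TPM. Of the 9 genes, 8 overlapped between groups, where 17.2% of all genes tested were lower and 12.9% higher without overlap. *Rbbp7*, a histone chaperone with WD repeats that NuRD shares with other complexes, was at 779.6, 623 and 669.5 TPM in control KD and at 766, 668 and 700.5 TPM in *Yy1* KD libraries (log2 fold change 0.05, standard error 0.10). Its paralogue *Rbbp4* was at 88.3 ± 2.63 and 88.9 ± 1.91 TPM (SD, n = 3 per group), and *Rbbp7* made up 88.6% and 88.9% of the pair. *Rbbp4* shares 1578 exonic bases with *Gm26722* and *Sync* on the other strand.

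MTA proteins form the scaffold that holds the deacetylases. *Mta3* was at 176 ± 19.7 and 167 ± 18.2 TPM and *Mta2* at 146 ± 9.26 and 153 ± 9.63 TPM (SD, n = 3 per group), so that neither clearly exceeded the other in these libraries. *Mta3* made up 53.2% ± 3.88 of the MTA sum in control KD and 51.2% ± 4.24 in *Yy1* KD morulae (SD, n = 3 per group). *Mta1* was low, at 7.28, 11.9 and 6.69 against 5.12, 5.21 and 7.61 TPM, with overlap (log2 fold change -0.44, standard error 0.25, limma adjusted p = 0.342).

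*Mbd3*, the subunit that joins NuRD without binding methylated DNA, was at 130.2, 139 and 142 TPM in control KD and at 142, 119.7 and 153 TPM in *Yy1* KD libraries (log2 fold change 0.01, standard error 0.10). *Mbd2*, which binds methylated CpG, was at 5.57 ± 1.44 and 4.91 ± 1.02 TPM (SD, n = 3 per group), and *Mbd3* made up 96.1% and 96.5% of the pair. *Gatad2a*, which links MBD proteins to the ATPase, was at 96.5 ± 4.51 and 92.3 ± 7.51 TPM (SD, n = 3 per group) with overlap. *Gatad2b*, its paralogue, was the 1 gene without overlap among the 9 NuRD subunits other than CHD proteins. It was at 31.8, 31.3 and 31.5 TPM in control KD and at 21.8, 28.9 and 28.3 TPM in *Yy1* KD libraries and missed the threshold (log2 fold change -0.26, standard error 0.13, limma adjusted p = 0.267).

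*Atrx*, a remodeler that deposits a replacement form of histone H3 in heterochromatin together with DAXX, was at 69.1, 57.3 and 64.6 TPM in control KD and at 62.2, 76.4 and 77.9 TPM in *Yy1* KD libraries. The groups overlapped and it missed the threshold (log2 fold change 0.18, standard error 0.12, limma adjusted p = 0.426).

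A further list held 28 partner genes of these complexes and other SNF2-type remodelers, of which 26 were tested. None was downregulated and 2 were upregulated, beside 4.2% and 1.92% of all genes. *Daxx*, the histone chaperone that works with ATRX, was between 26.1 and 34.4 TPM in control KD and between 46.4 and 61.3 TPM in *Yy1* KD libraries, without overlap, with means of 31.3 ± 4.54 and 52.5 ± 7.77 TPM (SD, n = 3 per group; log2 fold change 0.73, standard error 0.15, limma adjusted p = 0.0408). *Srcap*, the ATPase that exchanges the histone variant H2A.Z into nucleosomes, went from 28.8, 31.1 and 29.4 to 42.2, 39.5 and 42.1 TPM (log2 fold change 0.46, standard error 0.08, limma adjusted p = 0.0301). *Srcap* shares 10564 exonic bases with *1700008J07Rik*, *Gm28198* and *Gm42715*, so that its reads cannot all be assigned to it. Neither gene was called in the 6 fits that left out 1 library. *Actl6b* and *Bcl11a*, which belong to BAF of neurons and other differentiated cells, were at or near 0 in all libraries and were not tested.

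The deacetylases of NuRD lay on opposite sides and were not called. *Hdac1* was at 456 ± 2.30 and 411 ± 17.0 TPM (SD, n = 3 per group; log2 fold change -0.15, limma adjusted p = 0.205). *Hdac2* was at 157 ± 7.46 and 184 ± 9.20 TPM (SD, n = 3 per group; log2 fold change 0.22, limma adjusted p = 0.127). *Kdm1a*, a demethylase that can join NuRD, had a log2 fold change of -0.31 (limma adjusted p = 0.0606), and *Cdk2ap1*, a small NuRD subunit, one of 0.47 (limma adjusted p = 0.0609). *Ep400*, the ATPase of the TIP60 complex, had 0.31 (limma adjusted p = 0.0593). These genes were not called and were picked after their values were seen.

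*Bcl7a* was called in 15 of the 16 alternative fits, *Dpf2* in 6 and *Smarcb1* in 5. The sign was the same in all fits for each of the 8 members that any fit called. *Chd4* was called in 3 alternative fits and *Arid2* in 2. *Smarcd2*, *Smarce1* and *Smarca2* were called in 1, limma-voom on the recovered read pairs. In that fit 6 members were lower and 2 higher, beside 7.59% and 4.73% of all genes. *Ss18* and *Chd3* were not tested in it. Among genes with a mean of at least 5 TPM, 5 of the 36 members at that level were lower and 0 higher, beside 7.88% and 3.54% of the genes tested. The 3 calls were made again with a pseudocount of 0.1 TPM (3.93% of all genes lower, 1.71% higher), robust variances (4.06% and 1.84%) and weights per library (4.21% and 1.98%).

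*Bcl7a* was the sole member called without a filter on low values (0.753% of genes lower, 0.215% higher), with quantile normalization (3.16% and 2.24%), without a variance trend (2.2% and 0.761%) and with the replicate number as a block (1.26% and 0.398%). With median-ratio scaling *Bcl7a* and *Dpf2* were called (3.58% and 2.19% of genes), and *Smarcb1* had a limma adjusted p of 0.0640. Fits on 5 libraries made fewer calls over all genes. Without control KD replicates 1, 2 or 3, the genes called lower were 0.502%, 0.768% and 0.301% and those called higher 0.281%, 0.268% and 0.138%, and *Bcl7a* was called in the first and the second of these. Without *Yy1* KD replicates 1, 2 or 3, the shares were 1.96%, 1.05% and 2.01% lower and 0.483%, 0.288% and 0.463% higher, and *Bcl7a* was called in each, with *Chd4* beside it in the third. No member was called higher in these 6 fits.

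**Figure D5:**
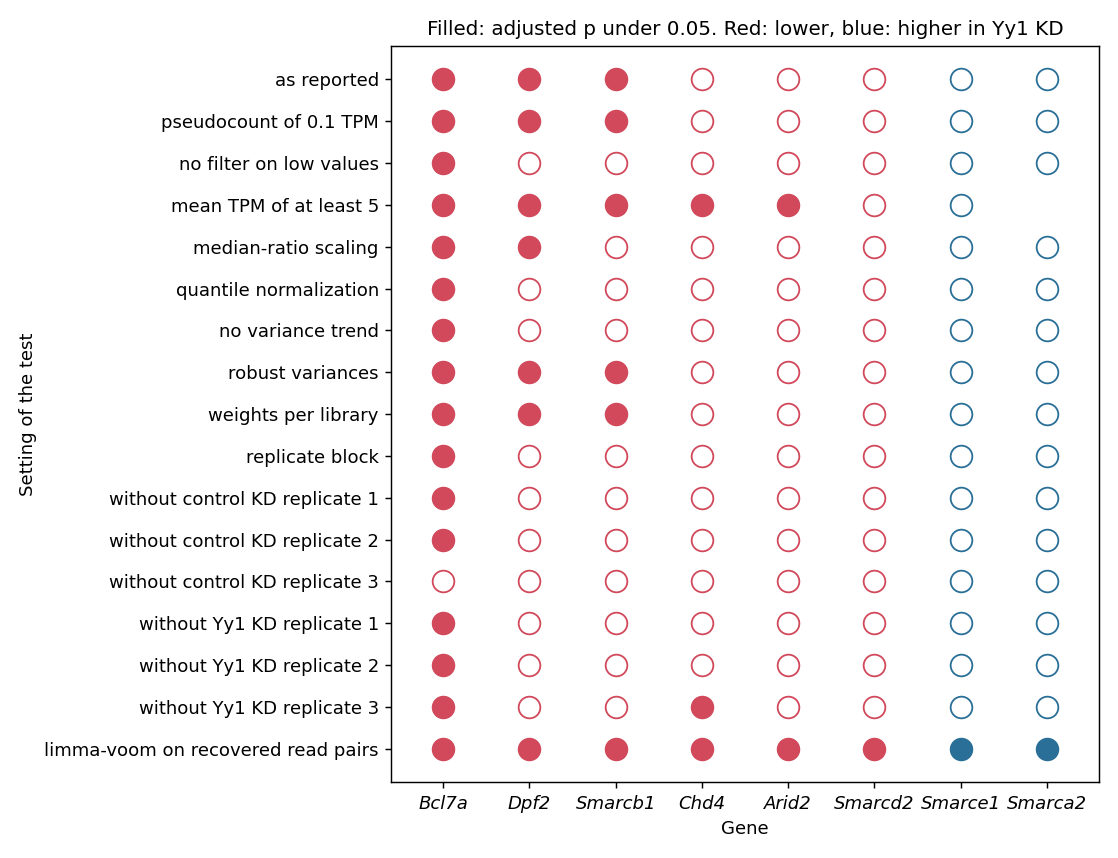
Calls of the 8 members that passed an adjusted p of 0.05 in at least 1 fit, by setting of the test. Filled circles are calls, red is lower and blue is higher in *Yy1* KD morulae, and a blank means that the gene was not tested. *Bcl7a* is open only without control KD replicate 3.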

How the data were processed

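RNA was measured in 3 control KD and 3 *Yy1* KD libraries, assigned by their titles. The authors trimmed reads with Trim Galore (0.6.7), aligned them to mm10 with HISAT2 (2.2.1), removed ribosomal RNA with bedtools, assigned pairs to GENCODE vM25 genes with featureCounts (2.0.1; pairs on several genes divided, strand ignored although the kit is stranded, so that antisense genes cannot be told apart) and deposited TPM. The authors tested counts with edgeR. Since TPM values are not counts, limma (3.58.1, R 4.3.3) with a variance trend was fitted here to log2(TPM + 1), without a replicate block, for genes with TPM of at least 1 in at least 3 libraries. P-values are two-sided. Whether replicates came from separate collections is not given, and p-values measure the spread between libraries. Paralogue shares were compared with exact permutation tests (Python 3.11.15, scipy 1.17.1). GENCODE vM21 (GRCm38) gave coordinates, overlaps and exon lengths; 54312 of 55364 genes had the same version, and 80.6% to 81.6% of recovered values under 20 pairs were whole (within 0.01). The test was checked on simulated data. The members, gene lists and named-gene rule (called members, members past 0.5 on the log2 scale, and ATPases in full) were chosen with earlier results of these data known. Values per library of other members are shown in addition. Alternatives changed the pseudocount, filter, scaling, variance model, libraries and replicate block.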

Additional observations from a re-analysis of the deposited data

How the results depend on the processing

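The count of 3 downregulated members became 1 without a filter on low values, 1 with quantile normalization, 1 without a variance trend, 1 with the replicate block, 5 with a mean TPM of at least 5, 6 with limma-voom on recovered read pairs, and between 0 and 2 when a library was left out; 0 were left without control KD replicate 3. The count of upregulated members, 0, became 2 with limma-voom and was between 0 and 0 when a library was left out. The 2 partner genes became 0 without a filter, 0 without a variance trend, 0 with the replicate block, between 0 and 0 when a library was left out, 5 with a mean TPM of at least 5 and 7 with limma-voom. In these fits the number of genes, the number of libraries, the scaling of the values or the model differs, and beyond that the cause was not tested.

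Whether the replicate numbers mark pairs could not be decided. For each control KD and *Yy1* KD library, the deviations from the group means were correlated over genes. For same-numbered libraries the correlation was -0.004, 0.03 and 0.07 (replicates 1, 2 and 3), and for unlike numbers between -0.07 and 0.04. Not every library correlated best with its own number. With the replicate block 218 genes were downregulated and 69 upregulated, against 728 and 333 without it. The block also leaves fewer degrees of freedom, so this fall does not show whether libraries were paired. The counts of downregulated and upregulated genes were 270 and 77 without a filter, 382 and 132 without a variance trend, and 1285 and 801 with limma-voom. They were 548 and 388 with quantile normalization, and 50 to 335 and 23 to 81 when a library was left out.

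Of the 41 members tested, 30 kept their sign in each of the 16 alternatives that tested them. With quantile normalization *Smarcc2* was at 0.040 and *Rbbp7* at -0.018 on the log2 scale. When a library was left out, the log2 fold change lay between -0.069 and 0.11 for *Mbd3*, -0.073 and 0.097 for *Brd9*, -0.015 and 0.027 for *Rbbp4*, -0.017 and 0.050 for *Smarcc1*, -0.022 and 0.085 for *Chd8*, -0.073 and 0.086 for *Phf10*, -0.024 and 0.14 for *Rbbp7*, -0.11 and 0.0059 for *Arid1b*, -0.20 and 0.033 for *Chd6*, and -0.21 and 0.012 for *Chd2*. None of these was called. The difference in share of each leading paralogue moved by less than the larger of its 2 group SDs, but 3 small differences changed sign: when a library was left out, *Arid1a* lay between -0.995 and 0.529 points, *Smarcd2* between -0.672 and 2.17 and *Rbbp7* between -0.048 and 0.833, and *Rbbp7* was at -0.548 with quantile normalization. The shorter letters GCCAT were present in 43.8% of members and 44.2% of all genes with an entry, and within 100 bases around the start GCCATNTT was present in 12.5% and 3.42%. With 3 libraries per group calls near the threshold are sensitive to 1 library, and genes near 1 TPM rest on few read pairs.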
